A study of Mus musculus with 6 samples.

Results

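RNA-seq counts of mouse embryonic fibroblasts were examined for 10 genes that are widely used as reporters of the hypoxia-inducible factors (HIF) and that are not glycolytic enzymes: Ndrg1, Ankrd37, Ak4, Mxi1, Ccng2, Higd1a, Ppp1r3c, Selenbp1, Mif and Stc2. They were chosen by name as well-known HIF targets, and all 10 were found among the 55335 gene identifiers of the count table. This choice, like that of all gene lists here, was made with earlier results of these data known. Wild-type (WT) mouse embryonic fibroblasts (MEF), adherent connective tissue cells, made up both groups, and routine culture was in medium with serum. Confine cells were those that had crossed a transwell membrane with 3 μm pores and were collected after 15 h, and Ctrl cells were the parental cells. No low-oxygen treatment is named for either group. In the study's general transwell procedure, which is described for wider pores, the upper chamber lacked serum and the lower one held it, and whether this applied to the Confine cells is not stated. The 3 Ctrl and 3 Confine columns hold 5 different libraries, because Confine replicates 1 and 2 hold the same count for each of the 55335 genes. That pair differed by less than sampling noise and entered as 1 sample, Confine replicate 1. The labels do not say whether the libraries came from separate cultures, so p-values measure the spread between these libraries, which may be technical. Passage through the pores, growth on the membrane and any difference in serum cannot be told apart in this design, and neither can a selection of cells and a response of cells.

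HIF is a pair of proteins, an oxygen-labile alpha subunit and its stable partner ARNT. With oxygen present, prolyl hydroxylases (the EGLN proteins) mark the alpha subunit for the ubiquitin ligase component VHL and it is destroyed, and with little oxygen it persists, pairs with ARNT and binds hypoxia response elements, whose core reads ACGTG or GCGTG. Many of the genes switched on in this way serve glucose use, but the reporters described here serve other ends, such as energy transfer in mitochondria, glycogen storage, a brake on growth, and secreted signals.

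To show where such core sequences lie, the promoters of 4 reporters are given, each 300 bases long, from 250 bases before to 50 bases after the transcription start (RefSeq, build GRCm38.p6, all 4 on the minus strand, written 5′ to 3′ in the direction of the gene). Capitals mark ACGTG or GCGTG read on either strand, and overlapping matches run together. Ankrd37 is shown for the highest fold change among reporters counted in every library, Higd1a for the highest level per length after Mif, Ppp1r3c because it has 4 matches and almost no reads, and Mif because it has 1 match and a small change.
Ankrd37 chr8:45999801-46000100: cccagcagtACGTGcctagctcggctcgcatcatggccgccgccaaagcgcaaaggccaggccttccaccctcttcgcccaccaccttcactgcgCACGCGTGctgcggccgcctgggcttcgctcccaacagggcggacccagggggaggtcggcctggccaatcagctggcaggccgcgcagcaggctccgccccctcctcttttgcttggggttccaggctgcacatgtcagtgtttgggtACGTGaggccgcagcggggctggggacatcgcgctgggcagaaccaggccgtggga
Higd1a chr9:121857747-121858046: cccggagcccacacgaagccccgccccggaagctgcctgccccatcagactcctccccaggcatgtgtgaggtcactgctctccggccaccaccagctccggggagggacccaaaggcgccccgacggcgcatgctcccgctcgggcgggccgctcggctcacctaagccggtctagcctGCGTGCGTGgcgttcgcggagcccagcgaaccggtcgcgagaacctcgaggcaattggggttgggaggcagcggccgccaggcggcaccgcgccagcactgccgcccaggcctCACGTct
Ppp1r3c chr19:36736555-36736854: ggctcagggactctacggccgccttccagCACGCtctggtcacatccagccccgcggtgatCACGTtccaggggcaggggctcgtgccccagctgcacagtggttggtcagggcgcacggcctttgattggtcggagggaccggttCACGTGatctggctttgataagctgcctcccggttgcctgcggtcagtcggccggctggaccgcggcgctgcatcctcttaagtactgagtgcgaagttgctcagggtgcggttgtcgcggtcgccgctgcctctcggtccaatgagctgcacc
Mif chr10:75860228-75860527: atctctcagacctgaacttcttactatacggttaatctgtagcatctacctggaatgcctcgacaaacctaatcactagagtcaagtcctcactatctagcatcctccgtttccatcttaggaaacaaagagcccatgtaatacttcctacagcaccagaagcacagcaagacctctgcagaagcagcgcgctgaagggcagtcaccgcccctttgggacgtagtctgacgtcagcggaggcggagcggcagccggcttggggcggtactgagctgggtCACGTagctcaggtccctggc

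The middle bases of the matches in Ankrd37 lie at positions -239, -153, -150 and -4 from the transcription start, those in Higd1a at -68, -64 and 46, those in Ppp1r3c at -219, -187, -102 and -101, and the one in Mif at 32. RefSeq promoter windows were found for 9 of the 10 reporters, with 14 windows in all, and 13 of the 14 held a match. These windows are not independent. Windows 1, 2 and 3 of Ak4 overlap and hold the same 2 matches, and windows 2 and 3 of Mxi1 also overlap. Each of the 9 reporters had a match in at least 1 window, whereas 46.7% of 27025 genes did. Of these 14 windows, 11 had a GC content of at least 60%, and among all windows that rich in GC the share with a match was 69.2%, against 43.8% of all 32851 windows. A match is a string of letters and not a measured binding site.

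**Figure D1:**
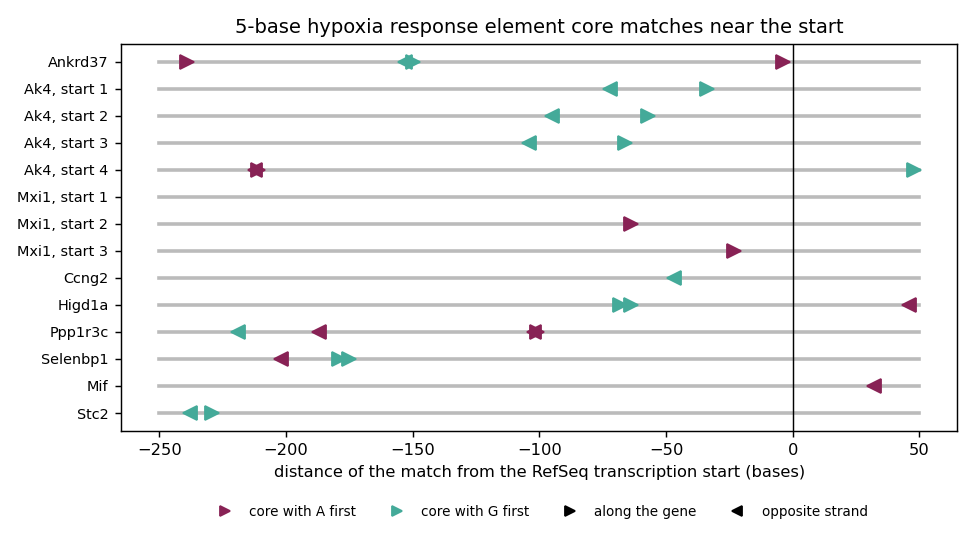
Positions of the core sequences ACGTG and GCGTG, on either strand, in the RefSeq promoter windows of 9 reporters, with the distance from the transcription start in bases on the x axis and 1 row per window. Of the 14 windows, 13 hold a match, and some windows of Ak4 and of Mxi1 overlap.

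The 6 reporters that act inside the cell and had reads in every library, Ndrg1, Ankrd37, Higd1a, Ak4, Mxi1 and Ccng2, were 5.72-fold to 34.5-fold higher in Confine than in Ctrl. Selenbp1 went from 2 reads in all Ctrl libraries to 181 in the 2 Confine libraries. The secreted factors Mif and Stc2 were 2.12-fold and 1.74-fold higher, and Ppp1r3c stayed at or below 3 counts in every library. Values below are CPM, read counts scaled to a common library size with TMM normalization, for Ctrl replicates 1, 2 and 3 and then Confine replicates 1 and 3. In bulk RNA, a larger share of cells that express a gene and more RNA per cell cannot be told apart.

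Of the 10 reporters, 9 entered the test, and all 9 of these rose at an adjusted p under 0.05 by edgeR's quasi-likelihood test, while 12.8% of all 15881 genes tested rose and 10.2% fell. Of the 9, 7 also had a log2 fold change above 1.5, as did 4.89% of all genes tested, and the 2 below it were Mif and Stc2. Both Confine libraries lay above all 3 Ctrl libraries for all 9, as they did for 25.9% of all genes tested. Selenbp1 passed the filter on low counts only through its Confine libraries, and Ppp1r3c did not pass it, so these counts do not describe all 10 reporters. The median log2 fold change of the 9 was 3.12, with a range of 0.80 to 6.78, beside a median of -0.00207 over all genes tested.

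**Figure D2:**
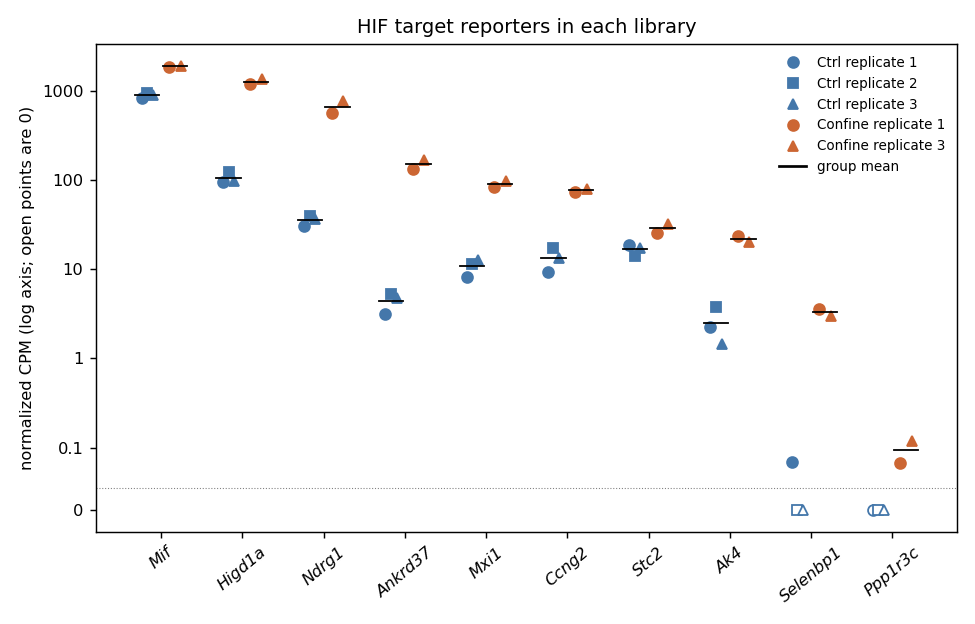
Normalized CPM of each reporter on a log axis, 1 point per library, with Ctrl and Confine side by side and a bar at each group mean that is above the axis break. Libraries with 0 reads are open points on the line marked 0. For all 10 reporters both Confine points lie above all 3 Ctrl points, but those of Ppp1r3c, at 0.0676 and 0.119 CPM, rest on 2 and 3 counts.

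Ndrg1, a cytoplasmic protein of the alpha/beta-hydrolase fold that is induced by many stresses, lies at chr15:66929318-66969640 on the minus strand (GENCODE M21, GRCm38, as for all gene positions here). It had 30.7, 40.1 and 37.2 CPM in the Ctrl libraries and 570.5 and 766 CPM in the Confine libraries. The groups were far apart, with the lowest Confine library 14.2 times the highest Ctrl library. The means were 36.0 ± 4.81 (SD, n = 3) and 668 ± 138 (SD, n = 2), a log2 fold change of 4.21 with a standard error of 0.20 and an adjusted p of 7.82e-11. The antisense gene Gm2895 shares 137 exon bases with Ndrg1 and had no Ctrl reads and 1 and 13 reads in Confine.

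Ankrd37, a small protein of ankyrin repeats (chr8:45996902-46005707, minus strand), had 3.14, 5.33 and 4.72 CPM in Ctrl and 134 and 169 CPM in Confine. Its groups were separated by more than those of any other reporter that had reads in every library, with the lowest Confine library 25.2 times the highest Ctrl library. The log2 fold change was 5.11 with a standard error of 0.24 and an adjusted p of 4.50e-11, the highest rank of the 6 intracellular reporters, at 52 among the 15881 genes. Lrp2bp on the opposite strand shares 349 exon bases with Ankrd37, and it also rose, from 50, 19 and 43 counts in Ctrl to 288 and 222 in Confine (log2 fold change 2.70, standard error 0.33, adjusted p 6.60e-06). Ufsp2, on the opposite strand with 57 shared exon bases, was at 75.2 ± 4.93 CPM in Ctrl (SD, n = 3) and 112 ± 10.3 CPM in Confine (SD, n = 2). Whether the counting used the strand is not given in the sources used here, so the reads of such neighbours may not have been kept apart. Ankrd37 itself had 91, 141 and 111 counts in Ctrl and 3969 and 4262 in Confine, above Lrp2bp in every library.

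The mitochondrial reporters are Higd1a, an inner membrane protein that associates with the respiratory chain, and Ak4, an adenylate kinase of the mitochondrial matrix. Higd1a (chr9:121848563-121858362, minus strand) had 96.1, 125 and 97.4 CPM in Ctrl and 1208 and 1354 CPM in Confine. It was the second most abundant reporter per length in both groups, and its Confine libraries lay close together. Its log2 fold change was 3.59, with a standard error of 0.19 and an adjusted p of 2.47e-10. A processed copy, Gm9790, is 99.3% identical to Higd1a over 288 bases and rose as well, from 28, 25 and 17 counts to 381 and 439, so its reads are uncertain. Higd1a exceeded Gm9790 per length by 7.36 to 12.8 times in every library.

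Ak4 (chr4:101419277-101466995, plus strand) had 2.28, 3.82 and 1.45 CPM in Ctrl and 23.5 and 20.5 CPM in Confine. Its Ctrl libraries were spread wider than those of the other reporters with reads in every library, with the highest 2.64 times the lowest, but the lowest Confine library was still 5.38 times the highest Ctrl library. The log2 fold change was 3.12 with a standard error of 0.29 and an adjusted p of 3.36e-07. Ak3l2-ps, a pseudogene 99.6% identical over 672 bases, had 2, 0 and 0 counts in Ctrl and 13 and 10 in Confine.

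Mxi1 and Ccng2 are linked to a slowing of growth: Mxi1 is a repressor that competes with MYC for the partner MAX, and Ccng2 is an unconventional cyclin found in arrested cells. Mxi1 (chr19:53310518-53375810, plus strand) had 8.29, 11.6 and 12.7 CPM in Ctrl and 84.7 and 98.1 CPM in Confine, with a log2 fold change of 3.07, a standard error of 0.21 and an adjusted p of 5.11e-09. Ccng2 (chr5:93267257-93276231, plus strand) had 9.33, 17.4 and 13.6 CPM in Ctrl and 74.0 and 79.6 CPM in Confine, with a log2 fold change of 2.52, a standard error of 0.22 and an adjusted p of 1.66e-07. Neither gene's groups overlapped, and Ctrl replicate 1 was the lowest library for both. An antisense gene inside Mxi1, AC133451.2, shares no exon base with it and rose from 28, 26 and 38 counts to 475 and 392 (log2 fold change 3.74, standard error 0.27, adjusted p 1.52e-08).

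Selenbp1, a methanethiol oxidase that binds selenium (chr3:94933056-94944758, plus strand), was at or near 0 in Ctrl, with 2, 0 and 0 counts, and had 105 and 76 counts in Confine, or 3.55 and 3.02 CPM. Pooled over libraries, the normalized ratio of Confine to Ctrl was 130.4, with a 95% counting interval of 35.6 to 1085. The adjusted p was 6.20e-07, and the fitted log2 fold change of 6.78 (standard error 0.66) depends on the added prior count since 2 Ctrl libraries are at 0. Selenbp2, whose transcript is 98.5% identical over 1712 bases, had no counts in Ctrl and 4 and 1 in Confine. Even in Confine, Selenbp1 remained the lowest in level of the 9 reporters tested.

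Ppp1r3c, the subunit that brings protein phosphatase 1 to glycogen and so favours glycogen synthesis (chr19:36731731-36736653, minus strand), had 0 counts in each Ctrl library and 2 and 3 counts in Confine. All 5 libraries were at or below the floor of 3 counts, which is 0.101 to 0.128 CPM, so no fold change is given, and a difference was not detectable at this depth. With the filter on low counts removed, its adjusted p was 0.269.

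The secreted reporters had the smallest log2 fold changes of the 9. Mif, a cytokine with tautomerase activity (chr10:75859353-75860240, minus strand), had 833, 949 and 903 CPM in Ctrl and 1877 and 1909 CPM in Confine. It was already the most abundant reporter in Ctrl, and its groups did not overlap. The log2 fold change was 1.08 with a standard error of 0.17 and an adjusted p of 1.25e-04. Of its near-identical copies, Mif-ps3 (95.7% identical) had the most reads of those counted, at most 19 in a library, and C230062I16Rik (99.4% over 508 bases) was not analysed here.

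Stc2, a stanniocalcin that is also induced by stress of the endoplasmic reticulum (chr11:31357307-31370074, minus strand), had 18.8, 13.9 and 17.4 CPM in Ctrl and 25.6 and 32.5 CPM in Confine. The groups did not overlap, but the gap was narrow, with the lowest Confine library 1.37 times the highest Ctrl library. The log2 fold change was 0.80 with a standard error of 0.20 and an adjusted p of 0.00666. Without Confine replicate 3 it was 0.62 with an adjusted p of 0.163, so the call rests on that library.

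**Figure D3:**
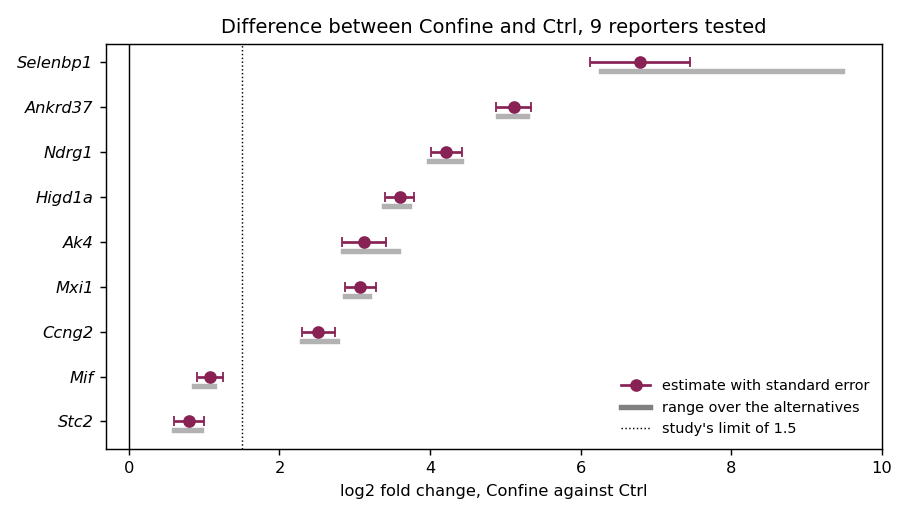
Log2 fold change of the 9 reporters tested, Confine against Ctrl, with the standard error, together with the range of values over the alternative settings. All lie above 0, from 0.80 for Stc2 to 6.78 for Selenbp1, and none changed sign under any setting run.

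Levels per length (RPKM, CPM divided by the exon length in kilobases) gave the order of the reporters. In Ctrl, Mif was at 1201 ± 78.7 RPKM, Higd1a at 34.9 ± 5.29 and Ndrg1 at 5.46 ± 0.729 (SD, n = 3), and these did not overlap each other. Stc2, Ankrd37, Ccng2 and Mxi1 followed between 3.23 and 1.59 RPKM, and neighbours among them overlapped. Ak4 at 0.541 RPKM and Selenbp1 and Ppp1r3c, near or at 0, came last. In Confine, Mif stood at 2541 ± 31.2 RPKM, Higd1a at 421 ± 34.1 (SD, n = 2), and Ndrg1 at 101 ± 21 and Ankrd37 at 98.5 ± 16.1 overlapped each other. Ankrd37 thereby moved from rank 5 in Ctrl to rank 4 in Confine, and Stc2 from rank 4 to rank 7, where it overlapped Ak4. Ccng2 at 14.1 ± 0.738 RPKM and Mxi1 at 13.4 ± 1.39 were neighbours in both groups and overlapped in both.

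**Figure D4:**
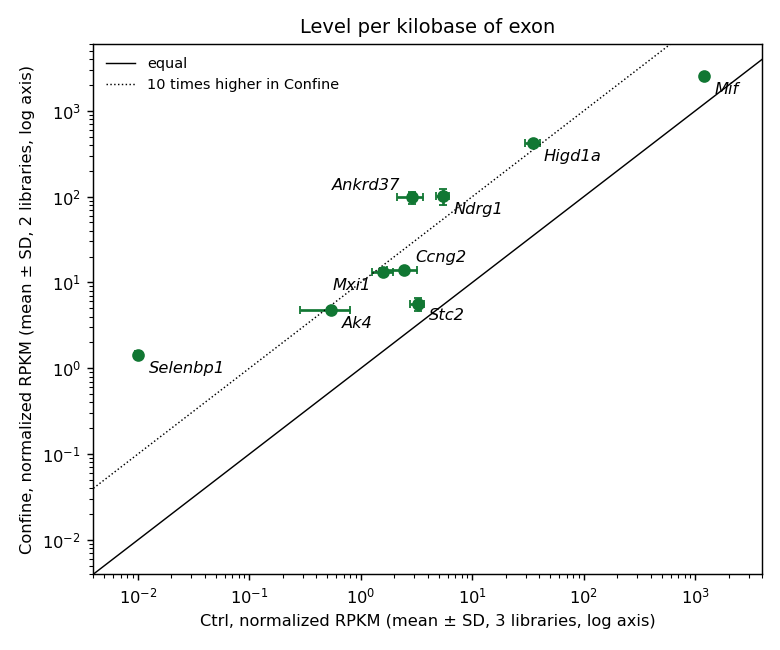
Mean RPKM in Ctrl (x axis, log scale) against mean RPKM in Confine (y axis, log scale) with SD bars for each reporter (3 Ctrl and 2 Confine libraries), except that Selenbp1 has no Ctrl bar because its SD exceeds its mean, and Ppp1r3c, at 0 in Ctrl, is not drawn. The solid line marks equal levels and the dotted line levels 10 times higher in Confine, and all 9 genes drawn lie above the solid line.

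Genes close to the reporters in sequence or function were then compared with them. Of 56 such genes in 9 families and pathways, 40 were tested, of which 12 rose, 6 fell and 22 did not pass, where 12.8% of all genes tested rose and 10.2% fell. They had a median log2 fold change of 0.19 beside 3.12 for the 9 reporters. In the NDRG family, Ndrg2 rose from 13, 11 and 12 counts in Ctrl to 1806 and 1678 in Confine, a log2 fold change of 7.11 (standard error 0.24, adjusted p 1.37e-12). Ndrg4 rose by 1.54 (standard error 0.23, adjusted p 6.69e-05), and Ndrg3 fell by 0.63 on the log2 scale (standard error 0.21, adjusted p 0.0391), a call lost without any 1 of Ctrl replicates 1 and 3 and Confine replicates 1 and 3 (adjusted p 0.0511, 0.168, 0.221 and 0.187). Per length, Ndrg1 was 0.441 to 0.797 times Ndrg3 in Ctrl and 13.9 to 17.8 times it in Confine, so the order of these genes turned over. The differences between genes of a family given here and below are descriptions and were not tested.

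Among the adenylate kinases, none of the 5 relatives of Ak4 that were tested rose and 1 fell, beside 12.8% and 10.2% of all genes tested. The cytosolic Ak1 had a log2 fold change of -0.12 and did not pass, while Ak5 fell by 0.78 (standard error 0.23, adjusted p 0.0203). Leaving out Confine replicate 1 or 3 ended the Ak5 call (adjusted p 0.197 and 0.0735).

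In the network of MYC and MAX, the repressors moved in both directions. Mxd1 rose beside Mxi1, from 6.78 to 26.2 CPM (log2 fold change 1.95, standard error 0.23, adjusted p 6.04e-06), and Mxd3 fell from 53.7 to 13.3 CPM (log2 fold change -2.01, standard error 0.23, adjusted p 3.96e-06). Mxi1 was 0.0574 to 0.0800 times Mxd3 per length in Ctrl and 2.04 to 2.94 times it in Confine. Myc itself had 47.7 and 58.3 CPM in Ctrl and Confine, with a log2 fold change of 0.29 and an adjusted p of 0.455. Mnt rose by 0.62 (standard error 0.22, adjusted p 0.0478). This call was lost under library size alone (adjusted p 0.195), with DESeq2 (0.0525) and with the size factors of DESeq2 in edgeR (0.0509). It was also lost without Ctrl replicate 1 (0.156) or Ctrl replicate 3 (0.15). Nor was the call kept without Confine replicate 1 or 3, where the log2 fold changes of Mnt were 0.75 and 0.47.

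The other G cyclin went the opposite way to Ccng2. Ccng1, a p53 target, fell from 91.5 to 56.1 CPM (log2 fold change -0.71, standard error 0.20, adjusted p 0.0148), and Ccng2 went from 0.0613 to 0.114 times Ccng1 per length to 0.789 to 1.01 times it. Without Confine replicate 1 the adjusted p of Ccng1 was 0.249. Ccni rose by 0.83 (standard error 0.20, adjusted p 0.00425), with an adjusted p of 0.185 without Confine replicate 3. Higd2a, the relative of Higd1a in the respiratory chain, had a log2 fold change of 0.47 and an adjusted p of 0.0759.

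Beside Ppp1r3c with its few reads, several enzymes of glycogen storage rose. Of 21 glycogen genes, 15 were tested, 5 rose, 1 fell and 9 did not pass, again beside 12.8% and 10.2% of all genes. Glycogen synthase Gys1 rose from 44.7 to 306.5 CPM (log2 fold change 2.78, standard error 0.19, adjusted p 4.67e-09), and the branching enzyme Gbe1 from 5.64 to 47.9 CPM (log2 fold change 3.08, standard error 0.22, adjusted p 1.49e-08). Epm2a, which encodes the glycogen phosphatase laforin, rose by 3.78 (standard error 0.24, adjusted p 2.01e-09). Gys1 and Gbe1 are themselves known HIF targets and are also counted among those below. The glycogen-binding Stbd1 rose by 0.78 (standard error 0.24, adjusted p 0.0255), and the phosphorylase Pygb fell by 0.62 (standard error 0.19, adjusted p 0.0267). Without Confine replicate 3 the adjusted p was 0.357 for Stbd1 and 0.0712 for Pygb. The call of Stbd1 was lost too without Ctrl replicate 2 (adjusted p 0.0563) and under library size alone (0.0855). That of Pygb was lost without Ctrl replicate 1 (0.0585). It was not kept without Confine replicate 1 either, where the log2 fold change of Pygb was -0.47.

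Around Mif, the receptor chain Cd74 fell from 12.0 to 3.85 CPM (log2 fold change -1.64, standard error 0.26, adjusted p 1.42e-04) and its signalling partner Cd44 rose by 0.75 (standard error 0.19, adjusted p 0.00783). The Cd44 call was lost without Ctrl replicate 3 (adjusted p 0.0554) or Confine replicate 1 (0.129). Ddt, the close relative of Mif, had a log2 fold change of 0.47 and an adjusted p of 0.228. The receptors Cxcr2 and Cxcr4 had 0 counts in every library, which is below the floor of 3 counts. Stc1, the relative of Stc2 and a known HIF target, rose from 33, 16 and 24 counts to 1810 and 1379 (log2 fold change 5.96, standard error 0.25, adjusted p 1.90e-11), and per length it was 0.0535 to 0.0749 times Stc2 in Ctrl and 2.08 to 2.94 times it in Confine.

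**Figure D5:**
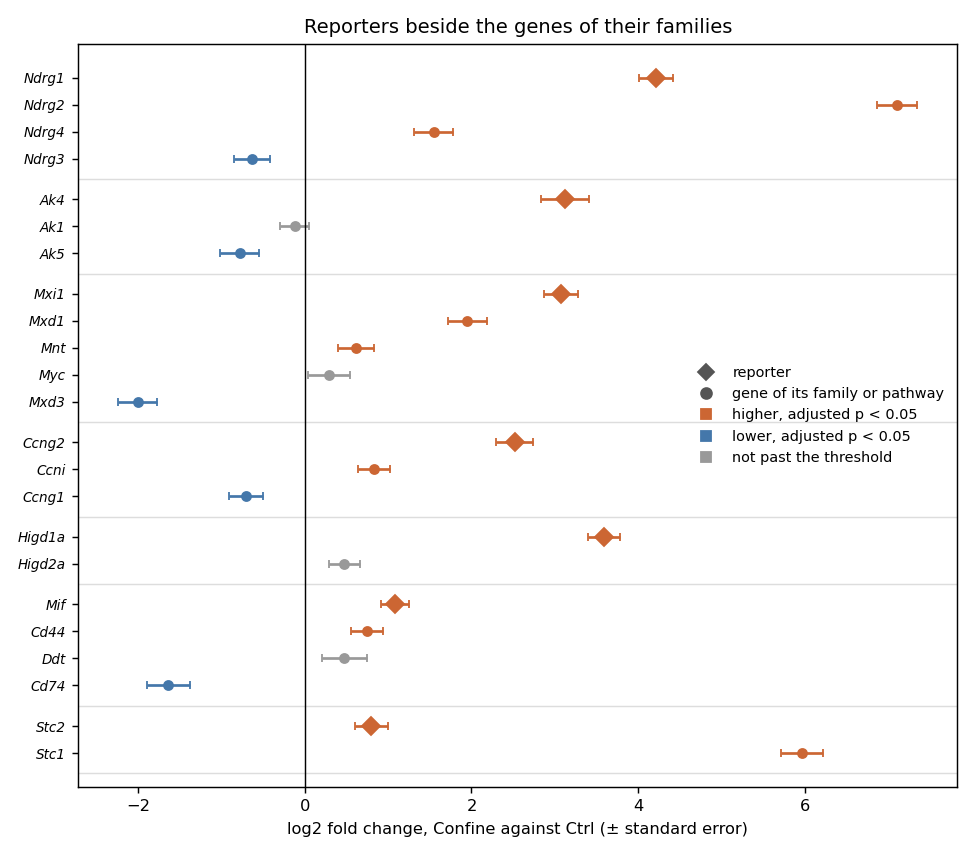
Log2 fold change with its standard error, Confine against Ctrl, coloured by the call at an adjusted p under 0.05. Diamonds are the reporters Ndrg1, Ak4, Mxi1, Ccng2, Higd1a, Mif and Stc2. Circles are genes of their families or partners named in the text, and the glycogen genes are not drawn. Ndrg2 at 7.11 and Stc1 at 5.96 lie above their reporters. Ndrg3, Ak5, Mxd3, Ccng1 and Cd74, which fell, lie below 0, as does Ak1 at -0.12, which did not pass.

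Beyond these genes, 45 other known HIF targets were found in the table, of which 43 were tested, 38 rose, 1 fell and 4 did not pass, beside 12.8% and 10.2% of all genes tested. Their median log2 fold change was 2.06, and 30 rose with a log2 fold change above 1.5, beside 4.89% of all genes. Car12, a carbonic anhydrase at 1, 0 and 0 counts in Ctrl and 117 and 154 in Confine, passed the filter on low counts only through Confine, and without it 37 of 42 rose. After it, the highest log2 fold changes were those of Stc1 and of another carbonic anhydrase, Car9, which rose by 5.59 (standard error 0.25, adjusted p 2.49e-11). Tfrc, the transferrin receptor, fell by 0.83 (standard error 0.27, adjusted p 0.0311), although its Confine and Ctrl libraries overlapped. The call was lost without Ctrl replicate 1 or 2 (adjusted p 0.0526 and 0.107) and with limma-voom (0.0553). The call was not kept without Confine replicate 1 or 3 either, where the log2 fold changes of Tfrc were -0.74 and -0.92. Of 10 HIF subunits and oxygen sensors, 8 were tested. Of these, 2 rose, 1 fell and 5 did not pass, beside 12.8% and 10.2% of all genes tested. The gene that fell was Arnt2 (log2 fold change -0.99, standard error 0.29, adjusted p 0.0191), and its call was lost without Ctrl replicate 1 (adjusted p 0.0544) or Confine replicate 1 (0.249). The hydroxylase Egln1, also counted among the other targets, and Vhl rose by 3.02 and 1.86 (standard errors 0.22 and 0.18, adjusted p 1.25e-08 and 5.94e-07), while Egln2 had a log2 fold change of -0.46 and an adjusted p of 0.1. Of 15 genes of the integrated stress response, to which Stc2 also belongs by its induction in stressed cells, 3 rose and 7 fell, beside 12.8% and 10.2% of all genes, with a median of -0.56, and the serine synthesis enzymes Phgdh and Psat1 fell by 2.25 and 1.64 on the log2 scale (standard errors 0.21 and 0.21, adjusted p 2.75e-07 and 1.15e-05). Atf4, its central factor, had a log2 fold change of -0.56 with an adjusted p of 0.0453, and this call was lost without any 1 of Ctrl replicates 1 and 3 and Confine replicates 1 and 3 (adjusted p 0.185, 0.0908, 0.1 and 0.284).

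Total counts were 22287210 to 27853805 in the Ctrl libraries and 27290138 to 32537550 in the Confine libraries. Beside the calls of cell type markers given here, 12.8% of all genes tested rose and 10.2% fell. Of 12 fibroblast markers, 8 were tested, 5 rose, 0 fell and 3 did not pass. Col1a1, Vim and Fn1 were among those that rose. Of those that did not pass, Pdgfrb and S100a4 were lower in Confine (log2 fold changes -0.36 and -0.28, adjusted p 0.194 and 0.346). Col1a2 was higher (log2 fold change 0.24, adjusted p 0.359). Thy1, Lum and Fap had at most 3 counts in every library. The summed level of the 12 was 8745 to 9602 CPM in Ctrl and 15732 to 16510 CPM in Confine. The summed level of 10 leukocyte markers was 7.78 to 8.50 CPM in Ctrl and 18.5 to 25.9 in Confine, with Adgre1 and Cd3e at 0 and Ptprc at most at 2 counts, and of the 3 that were tested Cd68 and Csf1r rose and Lyz2 fell. That of 7 endothelial markers was 0.595 to 1.36 CPM and 2.43 to 2.70 CPM, with Emcn and Tie1 at 0, that of 7 epithelial markers 0.415 to 0.794 and 4.02 to 8.77 CPM, mostly Krt19, with Epcam at 0, and that of 6 muscle markers 3.63 to 4.34 and 9.12 to 12.9 CPM, with Myod1 at 0. In each of these last lists 1 gene was tested and rose, namely Vwf, Krt19 and Des, of which Vwf and Krt19 passed the filter on low counts only through Confine. All these sums moved in the same direction as the reporters, and their part in the reporters' values was not tested.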

How the data were processed

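The authors deposited raw counts of reads per gene in 6 columns (3 Ctrl, 3 Confine), made from polyadenylated RNA in libraries that keep the strand. The submitters' processing notes name Trim Galore 0.6.10, HISAT2 2.1.0, SAMtools 1.5, featureCounts and the build mm10. The strand setting, the counting options and the annotation release are not given in the sources used here, and they decide how reads of overlapping genes and of sequence copies were assigned. Names, positions and exon lengths came from GENCODE M21 (GRCm38), in which 55154 of the 55335 identifiers were found, 54587 of them in the same version. No per-sample column was left unused (0 columns).

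From the counts, edgeR 4.0.16 in R 4.3.3 kept 15881 genes (filterByExpr), with TMM factors of 1.04, 1.08 and 1.06 in Ctrl and 0.910 and 0.924 in Confine. Its quasi-likelihood test compared Confine with Ctrl without a replicate block, with Benjamini-Hochberg adjustment over all genes tested and 3 residual degrees of freedom. The variance of each gene was also drawn towards that of all genes, with a median of 14.8 prior degrees of freedom. The comparison was planned as 3 against 3 and became 3 against 2 because of the repeated column. RPKM used the length of all exons of a gene. Intervals and floors cover counting error only. Copies were searched with blastn 2.17.0 (at least 90% identity over at least 100 bases). Scripts were tested on simulated data. Alternatives were DESeq2 1.42.0, limma-voom (limma 3.58.1), other normalizations and filters, a replicate block, and fits without 1 library at a time.

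The 10 reporters and all gene lists were chosen with earlier results of these data known. Named were all 10 reporters, every family or pathway gene with an adjusted p under 0.05 and at most 3 per list that missed it, by mean count, the other HIF targets that rose or fell most (at most 3 each), and at most 3 genes of each remaining list, by mean count. Neighbours and sequence copies of the reporters, Arnt2 and the cell type markers given were named outside this rule, after their values were seen. Some genes of these lists are counted but their values are not reported here.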

Additional observations from a re-analysis of the deposited data

How the results depend on the processing

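None of the 9 reporters tested changed direction under any of the alternatives run, and only Stc2 lost its call, without Confine replicate 3. The number of reporters that rose was 8 to 9 under every alternative (8 with at least 10 counts in every library, which removes Selenbp1, and 8 without Confine replicate 3), and the number above a log2 fold change of 1.5 was 6 to 7, with 7 when that limit was made part of the test. Their median log2 fold change of 3.12 was 2.91 with library size alone, 3.35 with no filter on low counts, which adds Ppp1r3c, and 3.57 in the fit with a replicate block that takes the repeated library as number 1 (3.17 as number 2), and it ranged from 3.05 to 3.54 when 1 library was left out. Between libraries of the same number, with the repeated library taken as 1 or 2, deviations from the group means correlated at 0.094, -0.083 and -0.0075. With only 2 Confine libraries their deviations mirror each other, so these values are not independent and cannot decide whether the samples were paired. Among the genes named, the replicate block as number 2 ended the calls of Ndrg3 (adjusted p 0.0985), Ak5 (0.0548), Mnt (0.167), Ccng1 (0.0765), Pygb (0.0987), Atf4 (0.311) and Tfrc (0.0872), and as number 1 that of Tfrc (0.0814). The number of other HIF targets past the threshold was 37 to 40, against 39. With library size alone the median of all genes shifted to -0.21, and 1444 genes rose and 2805 fell in place of 2035 and 1619. Of 974 values under the alternatives for the 65 genes past the threshold in the family, other HIF target, HIF subunit and stress response lists, 917 kept their direction and call, 57 kept only the direction and 0 reversed. Selenbp1's fitted log2 fold change ranged from 6.27 to 9.46. At this depth, genes at or below 3 counts such as Ppp1r3c could not be compared.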

Other observations

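Within the groups, the libraries in which the reporters were highest were counted. Ctrl replicate 2 was the highest Ctrl library for 6 of the 9 reporters tested (66.7%), for 18 of 43 other HIF targets (41.9%) and for 39.9% of all 15881 genes tested. Confine replicate 3 lay above Confine replicate 1 for 7 of the 9 reporters (77.8%), for 27 of the 43 other HIF targets (62.8%) and for 51.3% of all genes tested. These shares describe 5 libraries and were not tested.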
